A study of Mus musculus with 6 samples.

Results

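In all, 9 genes for secreted factors that recruit or sustain neutrophils and macrophages were followed in 6 mouse pancreatic ductal adenocarcinoma (PDAC) cell lines. They are the Cxcr2 ligand genes Cxcl1, Cxcl2, Cxcl3, Cxcl5 and Ppbp, and the genes Csf1, Csf2, Csf3 and Il34. The 9 members were chosen by name among the 56953 genes of the deposited table, and each symbol matched a single Ensembl identifier. RNA came from KPC142, KPC180 and KPC469 and from KPC490, KPC630 and KPC850, each line having 1 library and no replicate. The labels give all 6 the strain KPC, name no treatment and do not spell out the alleles. The study concerns lines whose tumours draw in few or many CD8+ T cells, but the labels give no such class for any line. The lines are therefore described side by side, and no group was compared with another.

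Chemokines of the CXC class that carry a glutamate-leucine-arginine motif bind the receptor Cxcr2 on neutrophils and guide these cells into inflamed tissue and tumours. Csf3 (G-CSF) drives the production of neutrophils, Csf2 (GM-CSF) acts on granulocytes, macrophages and dendritic cells, and Csf1 (M-CSF) keeps macrophages alive through the receptor Csf1r. Il34 is unrelated to Csf1 in sequence but binds the same receptor. In pancreatic tumours these factors are known as signals from tumour cells to myeloid cells.

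Members were scarce to moderately expressed, and their pattern differed from gene to gene. Of the 9, 5 members reached 10 CPM (counts relative to the scaled library total) in at least 1 line: Cxcl1, Cxcl5, Ppbp, Csf1 and Il34. Cxcl5 in KPC850, at 195 CPM, and Csf1 in KPC469, at 104 CPM, were the highest values. No line was high for every factor: KPC850 had the most Cxcl5, KPC469 the most Cxcl1, Cxcl2 and Csf1, KPC630 the most Ppbp, Csf2 and Csf3, and KPC142 the most Cxcl3 and Il34. KPC180 had the least Cxcl2, Cxcl3 and Cxcl5, and KPC490 had no count of Cxcl1 or Csf3 and the least Ppbp and Csf1.

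**Figure D1:**
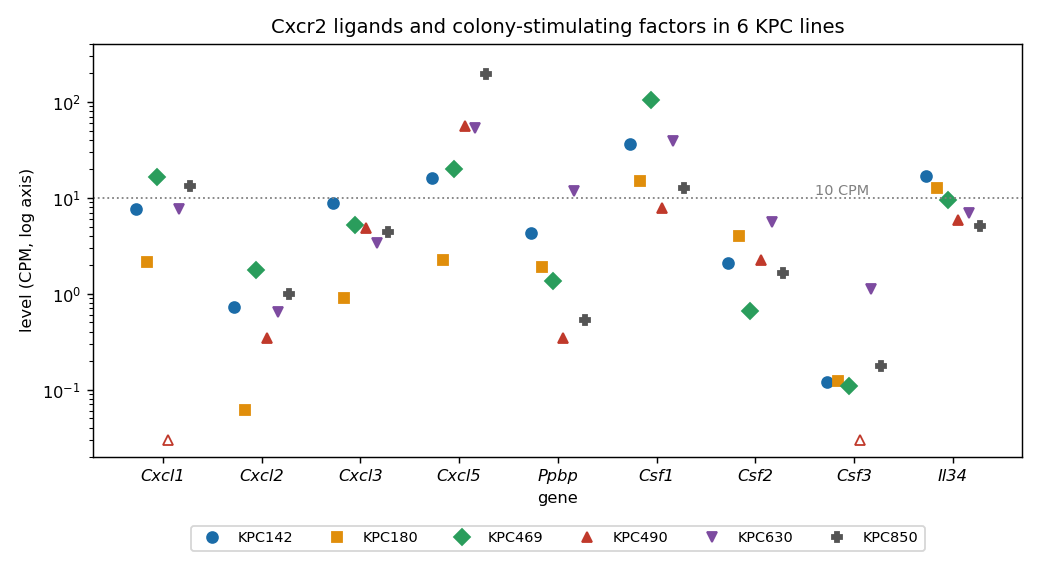
Level of each of the 9 genes in each of the 6 lines, in CPM on a log axis, 1 point per library. Open symbols at the bottom mark 0 counts, and the dotted line marks 10 CPM; the highest point is Cxcl5 in KPC850 at 195 CPM, and the open symbols are Cxcl1 and Csf3 in KPC490.

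The promoters of the closely related genes Cxcl1, Cxcl2 and Cxcl3 are shown because these 3 genes share a sequence element. RefSeq promoter windows, on GRCm38.p6, were at hand for 6 of the 9 members (Cxcl1, Cxcl2, Cxcl3, Ppbp, Csf1 and Csf2). The windows have 300 bases, of which 250 lie before the annotated gene start. Capitals in the stretches printed mark a match to GGANNNTCC, a loose form of the site bound by NF-kB, the transcription factor family best known for inducing these chemokines. The Cxcl1, Cxcl2 and Cxcl3 stretches lie on the plus strand at chr5:90891115-90891216, chr5:90903769-90903870 and chr5:90785971-90786072. The Csf1 stretch lies on the minus strand at chr3:107760548-107760649.
Cxcl1: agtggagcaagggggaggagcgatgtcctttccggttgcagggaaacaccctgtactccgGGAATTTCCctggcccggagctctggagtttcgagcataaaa
Cxcl2: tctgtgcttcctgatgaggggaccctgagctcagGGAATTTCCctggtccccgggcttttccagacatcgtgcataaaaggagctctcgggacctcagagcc
Cxcl3: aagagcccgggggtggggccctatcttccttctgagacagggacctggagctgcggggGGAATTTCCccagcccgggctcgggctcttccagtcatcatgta
Csf1: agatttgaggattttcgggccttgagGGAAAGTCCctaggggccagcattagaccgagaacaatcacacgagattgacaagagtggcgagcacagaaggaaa

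In all 3 chemokine promoters the match reads GGAATTTCC, and it lies within the same 11 bases, GGGAATTTCCC. Positions count from the annotated gene start, and the match begins at -70 in Cxcl1, -96 in Cxcl2 and -72 in Cxcl3. Searched on both strands, GGAATTTCC occurs in 104 of 32851 promoter windows (0.317%). The looser GGANNNTCC, which includes it, occurs in 8.62% of them. Csf1 has a match to the looser form, beginning at -154, while the Ppbp and Csf2 windows have none. The site for AP-1, TGANTCA on both strands, was found in 7.81% of windows and, among the members, in Ppbp at -204. A match is a description of letters, and occupancy was not measured.

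Cxcl5, whose product binds Cxcr2 and attracts neutrophils, was the most variable of the members with counts in every line. Its level was 195 CPM in KPC850, 55.4 in KPC490, 53.8 in KPC630, 19.7 in KPC469, 15.9 in KPC142 and 2.25 in KPC180. KPC850 stood alone at the top, 3.52-fold above the next line, and KPC180 alone at the bottom. Between these lines the ratio was 86.7 (62.8 to 123.3, an exact conditional binomial 95% interval). Such intervals cover counting error only, since no line had a second library and the spread between cultures of a line is unknown. Of the 5 steps between neighbouring lines, 4 exceeded counting error, and KPC490 and KPC630 could not be told apart (ratio 1.03, 0.94 to 1.13). Without KPC180 the ratio between the extremes was 12.3, and without KPC850 it was 24.7.

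Cxcl1 (KC), a neutrophil attractant released by many cell types in inflammation, was found in 5 lines. Its level was 16.4 CPM in KPC469, 13.3 in KPC850, 7.56 in KPC630, 7.55 in KPC142 and 2.12 in KPC180, from 35 to 301 counts. In KPC490 it had 0 counts, and a count of 0 allows up to 3 counts, or 0.174 CPM, in this library. With 3 counts taken for KPC490, the level in KPC469 was 94.1-fold higher, which leaves out counting error in KPC469. Without KPC490 the lines spanned 7.72-fold. KPC142 and KPC630 could not be told apart (ratio 1.001, 0.782 to 1.28). In bulk RNA, fewer expressing cells and less RNA per cell cannot be told apart, here and in the values that follow. The same KPC490 library held 953 counts of Cxcl5, 83 of Cxcl3 and 6 of Cxcl2, so the other chemokine genes of the line were not all at 0.

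Cxcl2 (MIP-2) and Cxcl3 encode close relatives of Cxcl1. Cxcl2 was near the limit of detection, with 32 counts in KPC469, 17 in KPC850, 12 each in KPC142 and KPC630, 6 in KPC490 and 1 in KPC180. Its highest level was 1.74 CPM in KPC469, and it stayed under 1 CPM in the other 5 lines. None of its 5 steps between neighbouring lines exceeded counting error, although the ratio of KPC469 to KPC180 did (28.7, 4.8 to 1170). Cxcl3 was higher, at 8.87 CPM in KPC142, 5.23 in KPC469, 4.82 in KPC490, 4.37 in KPC850, 3.41 in KPC630 and 0.91 in KPC180. KPC142 was the highest and KPC180 the lowest (ratio 9.74, 5.72 to 17.9). In the other 4 lines no neighbouring pair exceeded counting error, but the ends of this run, KPC469 and KPC630, were not compared. Without KPC180 the Cxcl3 ratio was 2.60 and the Cxcl2 ratio 5.0.

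Cxcl2 and Cxcl3 shared 90% identity over 561 aligned bases of their longest annotated transcripts, with an identical run of 157 bases. Cxcl1 had 72.6% identity with Cxcl2 over 595 bases and 71.4% with Cxcl3 over 574, with identical runs of at most 23 bases. Reads from the shared run fit either gene, so the split of counts between Cxcl2 and Cxcl3 is uncertain. None of the 54 deposited values of the members (9 genes in 6 lines) had a fractional part, as estimates that divide reads between genes can have. By the mean absolute difference of centred log2 CPM over the 6 lines, Cxcl2 and Cxcl3 were the closest pair of the 9 members, at 0.60. Cxcl5 and Ppbp were the farthest at 2.48, and Cxcl1 was 1.5 from Cxcl2 and 1.86 from Cxcl3.

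Ppbp encodes the precursor of NAP-2 (Cxcl7), a Cxcr2 ligand best known from platelets. It had 11.8 CPM in KPC630, 4.31 in KPC142, 1.88 in KPC180, 1.36 in KPC469, 0.525 in KPC850 and 0.349 in KPC490. KPC630 lay 2.74-fold above the next line, and KPC490 and KPC850, with 6 and 9 counts, were the lowest and could not be told apart. The ratio of KPC630 to KPC490 was 33.9 (15.3 to 93.4), and without KPC630 the ratio was 12.4. Of 5 markers of platelets and megakaryocytes, Gp9 and Gp6 had 0 counts in every line, and 4 stayed under 1 CPM. The fifth, Itga2b, was lowest in KPC180 (0.364 CPM) and highest in KPC630 (2.29), and it was also at 2.27 CPM in KPC490, the line with the least Ppbp. A part of platelet-type RNA in the Ppbp levels was not tested.

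These 5 ligand genes lie in a cluster on chromosome 5, in the order Cxcl5, Ppbp, Pf4, Cxcl3, Cxcl15, Cxcl1 and Cxcl2. The cluster's other chemokine genes were nearly silent: Pf4 had 1 count in all, and Cxcl15 had 31 counts in KPC469, 4 in KPC850 and 1 in KPC490. The nearest genes on either side that reached 10 CPM varied far less than the ligands. Rassf6 ran from 26.9 CPM in KPC630 to 57.0 in KPC850, a range of 1.08 log2 units, and Mthfd2l from 15.9 in KPC630 to 20.9 in KPC469, a range of 0.40. Mthfd2l, the nearest expressed gene beyond Cxcl1 and Cxcl2, stood at 19.8 CPM in KPC490, where Cxcl1 had no counts. The growth factor genes Ereg and Areg farther along the chromosome were expressed in every line, at 29.6 to 45.4 CPM and 35.1 to 71.6 CPM.

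**Figure D2:**
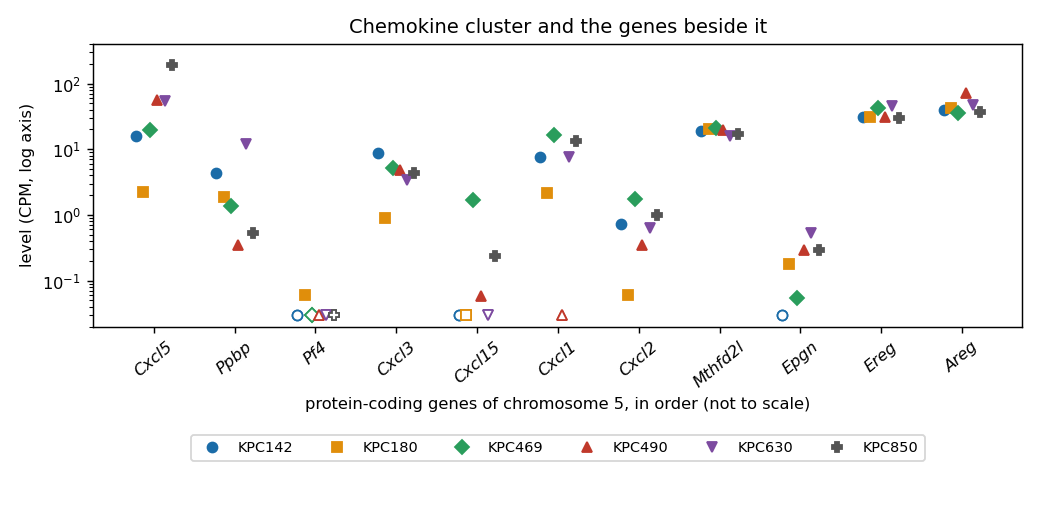
Levels of the 7 chemokine genes of the cluster and the next 4 protein-coding genes of chromosome 5, in their order along the chromosome and with no scale of distance, in CPM on a log axis with 1 point per line. Open symbols mark 0 counts; the 6 points of Mthfd2l lie between 15.9 and 20.9 CPM, while those of Cxcl5 run from 2.25 to 195 CPM.

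Levels of different genes were compared per kilobase of the longest annotated transcript. Summed over the 5 Cxcr2 ligands, the level was 114 CPM per kb in KPC850, 45.1 in KPC630, 31.6 in KPC490, 22.9 in KPC469, 19.4 in KPC142 and 4.37 in KPC180. Cxcl5 made up 94.1% of this sum in KPC490 and 91.8% in KPC850, 64.0% in KPC630, 46.1% in KPC469 and 43.9% in KPC142. In KPC180 Ppbp was the largest part with 39.8%. The longest transcripts of Cxcl1, Cxcl2, Cxcl3 and Cxcl5 are annotated as retaining an intron, so the longest coding transcripts were also used, a choice made after the data had been seen. With these, Cxcl1 led in KPC180 (35.3%) and KPC469 (46.5%), and Cxcl5 in the other 4 lines, with 87.0% in KPC490 and 86.5% in KPC850. The order of the lines by their sum was the same with either length.

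**Figure D3:**
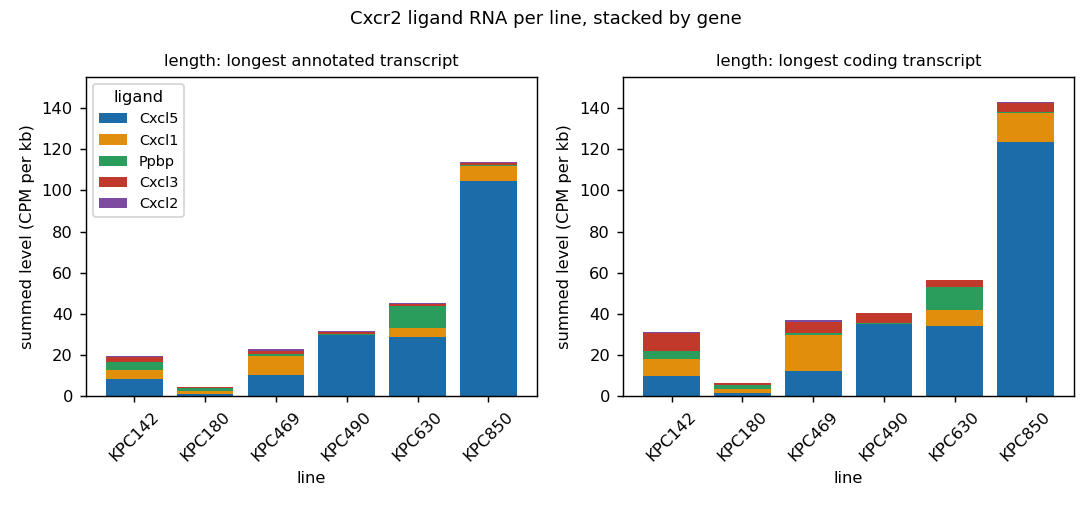
Summed level of the 5 Cxcr2 ligand genes in each line, in CPM per kb of transcript and stacked by gene, with the longest annotated transcript on the left and the longest coding transcript on the right. KPC850 has the tallest bar in both panels (114 and 143 CPM per kb) and KPC180 the shortest (4.37 and 6.32), and Cxcl5 fills most of the bars of KPC490 and KPC850.

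Csf1, the growth and survival factor of macrophages, was expressed in every line. It stood at 104 CPM in KPC469, 39.2 in KPC630, 36.6 in KPC142, 14.8 in KPC180, 12.7 in KPC850 and 7.84 in KPC490. KPC469 was 2.65-fold above the next line, and the ratio of KPC469 to KPC490 was 13.2 (11.1 to 15.9). KPC630 and KPC142 could not be told apart (ratio 1.07, 0.96 to 1.19), nor could KPC180 and KPC850 (1.17, 0.967 to 1.41). Without KPC469 the Csf1 ratio was 5.0, and without KPC490 it was 8.16. Next to it on chromosome 3, Ahcyl1 ran from 184.5 CPM in KPC490 to 264 in KPC180. On the other side Eps8l3 ran from 4.63 CPM in KPC469, the line with the most Csf1, to 82.4 in KPC850.

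Il34, the second ligand of Csf1r, had the smallest range of the 9 members. Its level was 16.9 CPM in KPC142, 12.5 in KPC180, 9.48 in KPC469, then 6.92 in KPC630, 5.81 in KPC490 and 5.07 in KPC850. The ratio of KPC142 to KPC850 was 3.33 (2.61 to 4.29). In the 3 lowest lines neighbours did not differ beyond counting error, but the ends of this run, KPC630 and KPC850, were not compared. Per kilobase of the longest transcript, Csf1 exceeded Il34 in KPC469 (24.8 against 5.28 CPM per kb) and KPC630 (9.38 against 3.85). Il34 exceeded Csf1 in KPC180 (6.96 against 3.55) and KPC490 (3.23 against 1.88). In KPC142 the levels were 8.77 for Csf1 and 9.41 for Il34, and in KPC850 they were 3.04 and 2.82. The order in KPC850 turned with the length used, to 2.41 for Csf1 and 2.59 for Il34 over the union of exons. The neighbours of Il34 on chromosome 8 that reached 10 CPM were Mtss1l, from 1.74 CPM in KPC142 to 11.8 in KPC469, and Sf3b3, from 215 in KPC850 to 482 in KPC180. Summed over both ligands, KPC469 had 30.1 CPM per kb and KPC490 the least at 5.11.

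**Figure D4:**
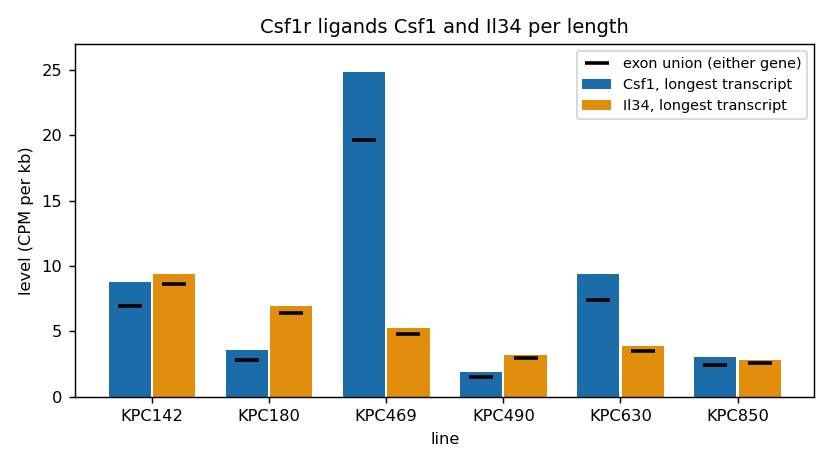
Levels of the Csf1r ligands Csf1 and Il34 in each line, in CPM per kb, with bars for the longest annotated transcript and black dashes for the union of exons. Csf1 reaches 24.8 CPM per kb in KPC469, while Il34 lies between 2.82 and 9.41 over the 6 lines and is above Csf1 in KPC142, KPC180 and KPC490.

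Csf2, the growth factor of granulocytes and macrophages, was low in all lines, with 105 counts in KPC630, 66 in KPC180, 39 in KPC490, 35 in KPC142, 28 in KPC850 and 12 in KPC469. These are 5.59, 4.01, 2.27, 2.10, 1.63 and 0.654 CPM in the same order. KPC630 was highest and KPC469 lowest (ratio 8.55, 4.69 to 17.1), and without KPC469 the ratio was 3.43. KPC469 thus had the most Csf1 and the least Csf2. P4ha2, the nearest gene at 10 CPM on 1 side of Csf2 on chromosome 11, 4 genes away, was also highest in KPC630 (47.9 CPM) and lowest in KPC469 (4.52 CPM). The lines between differed in order, with P4ha2 at 11.5 CPM in KPC180 and 31.7 in KPC850, where Csf2 was at 4.01 and 1.63. Fnip1 on the other side ranged from 49.8 to 66.2 CPM. Antisense genes annotated over Csf2 and Il34 had at most 3 counts in any line.

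Csf3, the factor that mobilises neutrophils from bone marrow, stayed under 1 CPM in 5 of the 6 lines. It had 21 counts in KPC630 (1.12 CPM), 2 counts each in KPC142, KPC180 and KPC469, 3 in KPC850 and 0 in KPC490. The level in KPC630 was 6.42-fold higher than in KPC490, taking 3 counts for the latter and leaving out counting error in the 21 counts of KPC630. The 5 other lines could not be told apart at this depth. Psmd3 and Med24, the expressed neighbours of Csf3 on chromosome 11, were highest in KPC142 (426 and 86.5 CPM) and stood at 286 and 64.1 CPM in KPC630.

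For a view of all genes, a range of 4-fold or more was taken on log2 CPM with a prior count of 2. Of the 5 members that reached 10 CPM, 4 (Cxcl1, Cxcl5, Ppbp and Csf1) had such a range, and over all 10234 genes that reached 10 CPM somewhere 15.4% did. The edgeR filter filterByExpr, which without groups asks for counts in every line, kept Cxcl3, Cxcl5, Csf1, Csf2 and Il34, of which all but Il34 had such a range, against 13.2% of 11531 genes. Among all 9 members 8 had such a range, against 20.3% of the 24900 genes with at least 1 count. The median range of the 9 members was 3.43 log2 units and that of those 24900 genes 1.04. A member that passes a filter only through its highest line is bound to have a wide range, so the first count gives no support beyond description. The 24900 genes include genes with too few counts to span 4-fold with this prior count, such as Pf4 (range 0.61 log2 units). These hold down the 20.3% and the median of 1.04, so the count of 8 is description as well.

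The line in which each of the 9 members was highest is given beside the share of the 10234 genes highest there, a set that holds 5 of the 9 members. KPC469 was highest for 3 members and for 21.4% of all genes, KPC630 for 3 members and 14.0% of genes, KPC142 for 2 members and 18.2%, and KPC850 for 1 member and 15.0%. KPC180 and KPC490 were highest for 0 members and for 16.0% and 15.3% of genes. KPC490 was lowest for 4 members and 11.8% of genes, KPC180 for 3 members and 16.5%, KPC469 for 1 and 20.0%, and KPC850 for 1 and 15.9%. KPC142 and KPC630 were lowest for 0 members and for 22.2% and 13.6% of genes. Among the 5 members inside that set, KPC469 was highest for 2 and KPC142, KPC630 and KPC850 for 1 each, and KPC490 was lowest for 3 and KPC180 and KPC850 for 1 each. Some of these places are unsettled. The lowest line did not differ from the next beyond counting error for Ppbp and Csf3 (KPC490), Cxcl2 (KPC180) and Il34 (KPC850). Nor did the highest line for Cxcl2 (KPC469).

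Of the 10 genes listed for receptors and binding proteins of these factors, 7 stayed under 1 CPM in every line. Cxcr1 and Ackr1, listed with Cxcr2 as chemokine receptors, had 0 counts in every line, and Cxcr2 reached 6 counts in KPC180 and at most 1 elsewhere. Csf1r had 2 to 11 counts, and the receptor genes Csf3r, Csf2rb and Csf2rb2 had 1 count each in all. Csf2ra, the subunit that binds Csf2, was at 20.7 CPM in KPC469, 7.85 in KPC142, 5.58 in KPC490, 3.67 in KPC850, 1.70 in KPC630 and 0 counts in KPC180. It was at least 113-fold higher in KPC469 than in KPC180. KPC469, the line with the most Csf2ra, had the least Csf2. Csf2rb, the signalling partner of Csf2ra, had no count in KPC469. Of the further proteins that bind Il34, Sdc1 (syndecan-1) ran from 351 CPM in KPC142 to 678 in KPC630, and Ptprz1 reached 3.89 CPM in KPC490 and 0.639 or less elsewhere. In this list 2 genes, Csf2ra and Sdc1, reached 10 CPM, and 1 of these, Csf2ra, varied by at least 4-fold, against 15.4% of the 10234 genes.

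Cytokines that induce these genes, and their receptors, formed a list of 17 genes, of which 7 reached 10 CPM and 3 of these varied by at least 4-fold, against 15.4% of the 10234 genes. Il1b had 0 counts in every line, and Il1a, Tnf and Il6 stayed under 1 CPM. Il1rn, the antagonist of the interleukin-1 receptor, varied most, at 840 CPM in KPC490, 259 in KPC850, 227 in KPC630, 54.5 in KPC469, 28.7 in KPC180 and 18.4 in KPC142. It was highest in KPC490, the line without Cxcl1 counts (ratio to KPC142 45.7, 40.8 to 51.3), but it was also high in KPC850, where Cxcl1 was 13.3 CPM. A part of Il1rn in the level of Cxcl1 was not tested. Il1r1, the receptor that it blocks, ran from 23.4 CPM in KPC630 to 127.5 in KPC850. The alarmin gene Il33 ran from 54.2 CPM in KPC469 to 365 in KPC630. Lif ran from 7.10 in KPC180 to 25.5 in KPC490.

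Among 16 transcription factors and feedback genes, all of which reached 10 CPM, 4 varied by at least 4-fold, against 15.4% of the 10234 genes, and the median range was 1.27 log2 units against 0.93. Cebpd, a C/EBP factor of acute-phase genes, was 48.1 CPM in KPC469 and 2.04 in KPC142 (ratio 23.6, 16.8 to 34.3). The immediate early gene Egr1 was 63.1 CPM in KPC490 and 3.42 in KPC142, Jun was 40.9 in KPC630 and 7.79 in KPC142, and Atf3 was 14.4 in KPC142 and 3.27 in KPC469. Cebpb, at 51.8 CPM in KPC142 and 12.9 in KPC180, had a plain ratio of 4.02 (3.46 to 4.70). It fell just short of the 4, which were called on log2 CPM with the prior count of 2. None of the NF-kB genes Nfkb1, Nfkb2, Rel, Rela and Relb was among the 4, with ratios from 1.26 (Rela) to 2.42 (Relb). The feedback genes Tnfaip3 (3.58), Nfkbiz (3.51) and Nfkbia (2.27) also varied by less than 4-fold. Of 10 regulators of cytokine mRNA decay, 0 varied by at least 4-fold, against 15.4% of all genes at this filter, with a median range of 1.04. A count over 10 genes is too small to set them apart. The widest were Zc3h12a (Regnase-1), with 7.10 CPM in KPC180 against 21.6 in KPC850, and Arid5a, from 11.8 in KPC850 to 35.0 in KPC142. Zfp36l2 ran from 190.7 CPM in KPC142 to 431 in KPC469, and Zfp36l1 was lowest in KPC850 (45.4).

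Of 17 other genes for myeloid attractants or growth factors, 7 reached 10 CPM and 2 of these varied by at least 4-fold, against 15.4% of all genes at this filter. Cxcl12, a ligand of Cxcr4, was 14.3 CPM in KPC630 with 0.697 or less elsewhere, so KPC630 led for this gene as for Ppbp, Csf2 and Csf3. Spp1 (osteopontin) was 8760 CPM in KPC469 and 811 in KPC630. Kitl (stem cell factor) was highest in KPC630 at 139.9 CPM and lowest in KPC180 at 36.8, and Cx3cl1 was highest in KPC180 at 80.7 and lowest in KPC630 at 28.0. Lists here were chosen with earlier results of these data known.

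Genes with the pattern most like a member were taken by the mean absolute difference of centred log2 CPM over the 6 lines, a description with no test. For Cxcl5 these were Ffar4 (0.33), Pard3b (0.49) and Ankdd1b (0.50), and Ffar4 had 40.5 CPM in KPC850 and 0.971 in KPC180. For Csf1 they were Mcub (0.37), Stra6 (0.38) and Eif5a2 (0.40), with Mcub at 37.0 CPM in KPC469 and 5.98 in KPC490. For Ppbp they were Ablim3 (0.64), Nptxr (0.68) and Sfi1 (0.69), none of them as close. For Cxcl1 the closest, Tgm2 (1.07), Clic5 (1.07) and Ms4a8a (1.08), were distant. The measure is not scaled for range, and Cxcl1 ranged over 7.17 log2 units. Its place in KPC490, at 0 counts, was set by the prior count of 2. With a prior count of 0.5 Clic5 was no longer among the 3 closest. Tgm2 was 8.60 CPM in KPC490 and 94.3 in KPC469, so it kept counts in the line where Cxcl1 had none. Clic5 was at 0.871 CPM in KPC490, and Ms4a8a at 0.0581 CPM, the worth of 1 count in that library.

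Of 10 markers of ductal epithelium, the labelled cell type, 9 reached 10 CPM in at least 1 line, but not all in every line. Krt19 (a ductal keratin) ran from 837 to 2755 CPM and Cdh1 (E-cadherin) from 298 to 767. The keratins Krt7, Krt8 and Krt18 were lowest in KPC469, at 140.5, 843 and 543 CPM, against 2572, 4180 and 2316 in their highest lines. Epcam had 0.243 CPM in KPC180 and 0.70 in KPC850 and reached 10 CPM in KPC630 alone (10.5). Cldn4 was under 0.5 CPM in 4 lines and highest in KPC630 at 3.35. Markers of neutrophils summed to 0.117 to 2.73 CPM, with Elane, Mpo, Camp, Ngp and Retnlg at 0. Most of the highest sum, in KPC490, was Ly6g, with 45 counts there, 17 in KPC630 and at most 2 elsewhere. Among 10 macrophage and leukocyte genes, Tyrobp, Adgre1 and C1qa were at 0, Ptprc reached 0.466 CPM, and Mrc1 (15.3 to 159.9 CPM) and Cd14 (25.2 to 138.9 CPM) were the 2 that reached 10 CPM. Of 8 fibroblast markers Dcn, Lum and Thy1 were at 0, and the list summed to 0.659 to 7.30 CPM, highest in KPC469, the line with the most Csf1. Pdgfrb had 56 counts in KPC469 and at most 1 elsewhere, and Col1a1 had 50 in KPC630 and 36 in KPC469. Endothelial markers summed to 0.164 to 2.66 CPM, highest in KPC630, where Kdr had 47 counts, and Emcn was at 0. The part of such RNA in the members' levels was not tested. Library totals ran from 16471558 to 18701274 counts, so 1 count was worth 0.0532 to 0.0607 CPM.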

How the data were processed

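A kit for stranded mRNA was used, per the labels' protocols. The build GRCm39, RSEM 1.3.3, STAR 2.7.10b and Trimmomatic 0.36 are listed in the submitters' processing notes, and annotation and strand setting are not given in the sources used here. The deposited table holds expected counts by the authors, the estimates that RSEM makes, with a fractional part in 5.28% to 5.66% of the values of a library. They were rounded to whole numbers. Scaling used TMM factors of edgeR 4.0.16 in R 4.3.3 (0.986 to 1.01), computed on the 11531 genes that filterByExpr keeps, and log2 CPM had a prior count of 2. With 1 library per line no test was possible. Ratios carry exact conditional binomial 95% intervals. A count of 0 was replaced by 3 counts to give a ratio, which leaves out counting error in the higher line. PCR copies are not independent molecules, so all intervals cover counting error only.

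Symbols from a table of GRCm38 (GENCODE vM21) matched 52029 of 56953 identifiers, and transcript lengths, gene order and biotypes come from it. Promoter windows are RefSeq's on GRCm38.p6, with that build's coordinates. The named genes are all members, every receptor, up to 4 genes per list with the widest range at 10 CPM or more, the 3 genes most like each wide-ranging member, nearest neighbours and markers at 10 CPM or more. Genes named outside this rule (among them Il1a, Il1b, Tnf, Il6, the NF-kB genes, Ereg and Areg) were chosen after their values were seen. The members and lists were chosen with earlier results of these data known. Alternatives were DESeq2 1.42.0 size factors, plain totals, expected counts as deposited, other filters, folds, prior counts and lengths, and each line left out. The calculations were tested on simulated data.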

Additional observations from a re-analysis of the deposited data

How the results depend on the processing

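No paired analysis was possible because each line has 1 library. With DESeq2 size factors or plain totals, the ratios of the 7 members with counts in every line moved by less than their counting intervals. The ratios of Cxcl1 and Csf3, with 3 counts taken for the 0 in KPC490 and no interval printed here, became 93.4 to 93.6 and 6.44 to 6.47. The members' deposited values are whole, so rounding could not change them. Neither scaling moved the median gene by more than 0.02 log2 units. Leaving out 1 line at a time, the ratios ran from 7.72 to 94.1 for Cxcl1, 5.0 to 28.7 for Cxcl2, 2.60 to 9.74 for Cxcl3, 12.3 to 86.7 for Cxcl5, 12.4 to 33.9 for Ppbp, 5.0 to 13.2 for Csf1, 3.43 to 8.55 for Csf2, 6.42 to 10.3 for Csf3 and 2.47 to 3.33 for Il34. For Cxcl1 and Csf3, 94.1 and 6.42 take 3 counts for the 0 in KPC490. The values 7.72 and 10.3, without KPC490, are plain ratios and so not of the same kind. Leaving out KPC630 gives no Csf3 ratio, since the rest are at or under 3 counts. Members with a range of 4-fold or more numbered 3 without KPC630, where Ppbp no longer reached 10 CPM, and 4 with any other single line left out. DESeq2 and plain-total scaling, for these counts added after the data had been seen, gave 4 as well. With 1 line left out, the number over all genes was 1147 to 1443. Keeping every gene with at least 1 count gave 8 of 9 members and 5065 genes, in place of 4 of 5 and 1577. A threshold of 2-fold gave 4593 genes and 8-fold gave 930. Over the union of exons Csf1 exceeded Il34 in 2 lines in place of 3. With the longest coding transcripts, added after the data had been seen, 3 of 9 members kept their place in the order of median level per kilobase: Cxcl5, Cxcl2 and Csf3. With a prior count of 0.5, 11 of the 12 closest genes remained. Depth limits the order of the lines: of the 45 steps between neighbouring lines over the 9 members, 23 exceeded counting error, with 0 of 5 for Cxcl2 and 1 of 5 for Csf3.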
